A study of Homo sapiens with 4 samples.

Results

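ESRRG, PLD5, CHRM3, KCNH1 and TENM2 are 5 long genes of 19962 annotated coding genes, and they were chosen from these data because many accessible regions near them were listed in the No Dox cells and not in the Dox cells. Within the 5 gene bodies and 100 kb on each side lay 1555 of 149858 accessible regions. The number and share of No-Dox-only regions at these genes are therefore given as descriptions, with no test. They were chosen by name, with no set minimum count. Among the 417 coding genes at least as long as the shortest of them, their No-Dox-only counts ranked 2 for TENM2, 10 for ESRRG, 13 for PLD5, 14 for CHRM3 and 17 for KCNH1.

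Chromatin accessibility was taken from ATAC-seq, which uses a transposase to insert sequencing adapters into open DNA. The cells were MCF10A, a non-transformed human mammary epithelial line, transduced with a tet-inducible TAZ-4SA, a constitutively active form of the coactivator TAZ. Cells given 0.05 µg/mL Dox for 72 h (Dox, 2 replicates) were set against the same transduced cells without Dox (No Dox, 2 replicates), so that both groups carried the TAZ-4SA construct, and no Dox-treated cells without the construct were analysed here. Each condition had 1 peak list, made by the authors from its 2 pooled replicates, so neither a replicate spread nor a p-value could be given. Depth per sample is unknown here, since the lists hold no read counts.

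The Dox list held 84353 peaks and the No Dox list 117740 peaks. Overlapping or touching peaks of the 2 lists were merged into union regions, and a region is called Dox-only, No-Dox-only or shared by the lists that contributed to it. Absence from a list means that no peak passed the authors' FDR of 0.05, not that the DNA was closed. The lists were thus of unequal length, and over the genome the Dox-only class took 22.3% of the regions and the No-Dox-only class 45.3%, which is the background for every count below. The 95% confidence intervals given below are exact Clopper-Pearson intervals, which cover counting error only and treat neighbouring regions as independent.

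TAZ has no DNA-binding domain and reaches chromatin mainly through the TEAD transcription factors, often near sites of AP-1, the FOS and JUN dimer that holds many epithelial enhancers open. The 5 genes belong to different families and are best known outside the breast. ESRRG encodes an orphan nuclear receptor that drives genes of oxidative metabolism in heart, muscle and neurons. PLD5 encodes a member of the phospholipase D family that lacks conserved catalytic residues. CHRM3 encodes a muscarinic acetylcholine receptor that acts through Gq in glands, smooth muscle and brain. KCNH1 encodes a voltage-gated potassium channel of the ether-a-go-go family, expressed mainly in the brain. TENM2 encodes a teneurin, a transmembrane protein of synapses that binds latrophilins across the cleft. Long genes of this kind have large introns of low GC content, in which most of their open regions can lie.

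The label "neuronal" was checked against markers at the promoter level, since no RNA was analysed here. Among 12 neuron markers, 6 had a region at the promoter in both lists (SNAP25, SYT1, SYP, TUBB3, MAP2 and ELAVL4), 2 in Dox alone (RBFOX3 and SYN1), 1 in No Dox alone (GAP43) and 3 in neither (STMN2, ELAVL3 and NEFM). Among 12 markers of mammary epithelium, 10 were in both lists, KRT6A was in Dox alone and KRT14 in neither. An open promoter is not expression, and ESRRG and PLD5 are not neuron-specific, so the 5 genes are called by their symbols here.

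In hg38, ESRRG (ENSG00000196482.18) lies at chr1:216503246-217137755 on the minus strand, PLD5 (ENSG00000180287.17) at chr1:242082986-242524697 on the minus strand, and CHRM3 (ENSG00000133019.12) at chr1:239386565-239915452 on the plus strand. KCNH1 (ENSG00000143473.14) lies at chr1:210676823-211134165 on the minus strand, and TENM2 (ENSG00000145934.17) at chr5:166979029-168264157 on the plus strand. The gene bodies span 441712 bp in PLD5 to 1285129 bp in TENM2. Thus 4 of the 5 genes lie on the long arm of chromosome 1 and 1 on that of chromosome 5. MCF10A is known to carry gained copies of 1q and of part of 5q, and copy number was not measured here.

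The No-Dox-only region of the highest fold at each gene is shown first, as the 201 bases centred on its summit, because these are the regions that gave the 5 genes their place here. Fold is the authors' enrichment of the pooled signal over background at the summit. Capitals mark an AP-1 motif (TGACTCA or TGAGTCA) or a TEAD motif (ACATTCC or GCATTCC), sought on both strands.
ESRRG, highest No-Dox-only region, plus strand, chr1:216433626-216433826: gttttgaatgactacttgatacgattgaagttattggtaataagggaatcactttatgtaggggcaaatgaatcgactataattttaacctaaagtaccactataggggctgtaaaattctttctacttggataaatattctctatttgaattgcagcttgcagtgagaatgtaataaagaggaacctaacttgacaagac
PLD5, highest No-Dox-only region, plus strand, chr1:242102331-242102531: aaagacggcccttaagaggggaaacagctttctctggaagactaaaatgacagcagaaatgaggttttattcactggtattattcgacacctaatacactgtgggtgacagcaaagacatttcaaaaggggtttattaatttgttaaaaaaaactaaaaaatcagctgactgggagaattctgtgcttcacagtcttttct
CHRM3, highest No-Dox-only region, plus strand, chr1:239858154-239858354: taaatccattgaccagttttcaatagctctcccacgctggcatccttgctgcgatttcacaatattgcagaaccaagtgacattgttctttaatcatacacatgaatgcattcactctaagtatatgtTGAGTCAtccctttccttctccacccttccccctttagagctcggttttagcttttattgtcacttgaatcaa
KCNH1, highest No-Dox-only region, plus strand, chr1:210584483-210584683: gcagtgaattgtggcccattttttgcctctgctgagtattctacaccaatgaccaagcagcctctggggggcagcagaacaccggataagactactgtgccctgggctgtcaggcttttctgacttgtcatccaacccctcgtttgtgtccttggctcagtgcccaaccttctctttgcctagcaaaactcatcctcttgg
TENM2, highest No-Dox-only region, plus strand, chr5:167899545-167899745: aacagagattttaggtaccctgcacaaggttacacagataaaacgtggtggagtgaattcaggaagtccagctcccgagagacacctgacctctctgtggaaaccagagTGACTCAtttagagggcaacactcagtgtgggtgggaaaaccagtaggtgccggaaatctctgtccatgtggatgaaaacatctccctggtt

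In these 5 sequences the AP-1 letters occurred in CHRM3 and TENM2, starting 28 and 9 bases to the right of the summit, and neither motif occurred in ESRRG, PLD5 or KCNH1. Over all 149858 regions, 13.1% had an AP-1 motif and 8.87% a TEAD motif within 100 bp of the summit, so most regions had neither set of letters. The KCNH1 sequence had a GC content of 52.2%, against 33.3% in ESRRG. The region in KCNH1 had the highest fold, 8.47, and lay beyond the 3′ end of the gene within HHAT, the gene of an acyltransferase that palmitoylates hedgehog proteins. The PLD5 region lay in intron 8 (fold 7.84), the CHRM3 region in intron 6 (7.84), the TENM2 region in intron 5 (6.99) and the ESRRG region in the 3′ flank (6.78).

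Regions present in the Dox list are shown for contrast, and they were chosen after their values were seen. The TENM2 region was the strongest Dox-only region at the 5 genes, and the CHRM3 region was the strongest shared one.
TENM2, highest Dox-only region, plus strand, chr5:167803117-167803317: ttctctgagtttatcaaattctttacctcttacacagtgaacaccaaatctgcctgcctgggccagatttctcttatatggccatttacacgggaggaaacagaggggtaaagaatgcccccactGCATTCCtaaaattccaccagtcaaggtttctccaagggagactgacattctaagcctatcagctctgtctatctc
CHRM3, highest shared region, plus strand, chr1:239816164-239816364: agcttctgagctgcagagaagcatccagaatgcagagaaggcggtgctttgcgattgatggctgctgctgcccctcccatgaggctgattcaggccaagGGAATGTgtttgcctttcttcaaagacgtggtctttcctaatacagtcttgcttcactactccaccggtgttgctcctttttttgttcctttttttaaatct

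Both carried the letters of the TEAD motif, at 25 bases to the right of the summit in TENM2 and 1 base to the left of it in CHRM3, where it stands on the minus strand. The highest Dox-only regions of ESRRG, PLD5, CHRM3 and KCNH1 had no TEAD motif within 100 bp of the summit. Nor had the highest shared regions of ESRRG, PLD5 and KCNH1, whereas that of TENM2 had one. The TENM2 region (chr5:167802668-167803558, intron 4) had a fold of 15.4 in Dox and no peak in No Dox. The CHRM3 region (chr1:239813554-239820377, intron 5) was 6824 bp wide, and its fold was 41.6 in Dox, against 49.6 in No Dox. Folds of the 2 lists rest on separate backgrounds, so a fold difference between lists is a description of the deposited values and not of signal on a common scale.

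**Figure D1:**
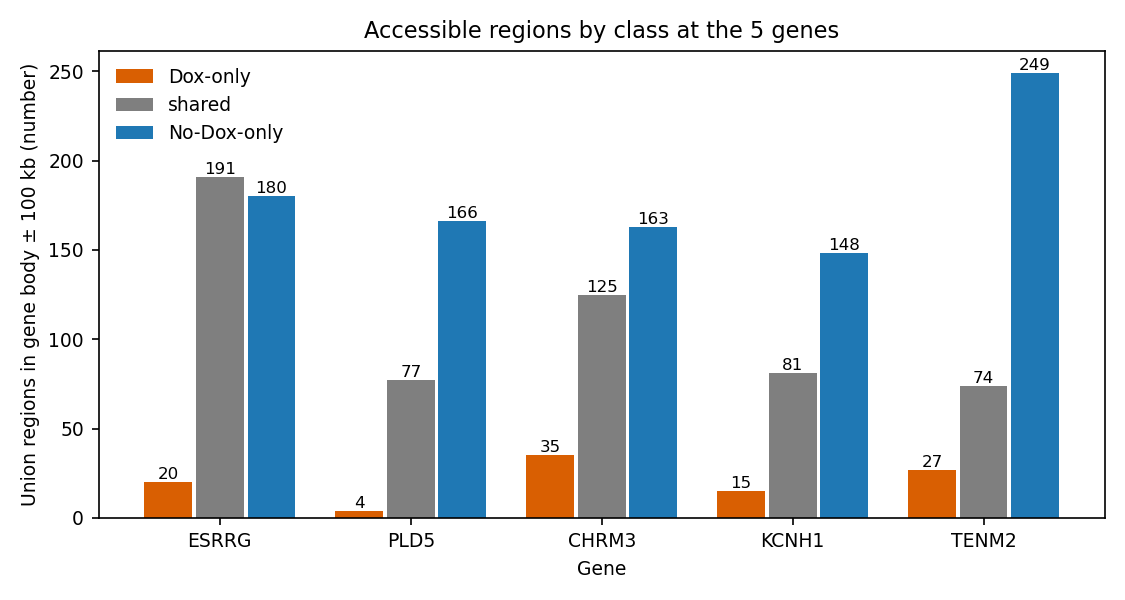
Number of union regions (y axis) in the gene body ± 100 kb of each gene (x axis), by class, with 1 pooled list per condition and no error bar. No-Dox-only regions outnumbered Dox-only regions at all 5 genes, from 163 against 35 at CHRM3 to 166 against 4 at PLD5, and shared regions were the most frequent class at ESRRG only.

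Of the 1555 regions at the 5 genes, the Dox-only class held 101, the No-Dox-only class 906 and the shared class 548. The No-Dox-only share was 58.3% (55.8% to 60.7%), against 45.3% of all regions, and the Dox-only share was 6.50% (5.32% to 7.84%), against 22.3% of all regions. At ESRRG 20 regions were in the Dox list alone, 180 in the No Dox list alone and 191 in both. At PLD5 these counts were 4 in Dox alone, 166 in No Dox alone and 77 in both. At CHRM3 they were 35 in Dox alone, 163 in No Dox alone and 125 in both. The No-Dox-only shares of ESRRG (46.0%, 41.0% to 51.1%) and CHRM3 (50.5%, 44.9% to 56.0%) had intervals that included that of all regions. Under other settings this held in some and not in others. With lists of equal length, ESRRG had 41.2% (36.1% to 46.5%) and CHRM3 41.6% (35.7% to 47.7%), against 32.1% of all regions. At a q-value of 1e-05, ESRRG had 60.8% (54.0% to 67.4%) and CHRM3 53.3% (44.6% to 62.0%), against 31.7% of all regions. With peaks merged within 200 bp, both intervals included the 44.9% of all regions. ESRRG then had 44.9% (39.8% to 50.1%) and CHRM3 49.3% (43.6% to 55.1%). In the gene body alone ESRRG had 44.8% (39.1% to 50.6%) and CHRM3 51.9% (45.4% to 58.3%), against 45.3% of all regions. KCNH1 had 15 regions in Dox alone, 148 in No Dox alone and 81 in both, with a No-Dox-only share of 60.7% (54.2% to 66.8%). TENM2 had 27 regions in Dox alone, 249 in No Dox alone and 74 in both, and its share of 71.1% (66.1% to 75.8%) had an interval that overlapped that of PLD5 (67.2%, 61.0% to 73.0%). What the 5 genes shared was a low Dox-only share, between 1.62% at PLD5 and 10.8% at CHRM3. A choice by many No-Dox-only regions also favours a low Dox-only share.

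Most of the No-Dox-only regions had low folds, as in the whole list. Their median fold was 3.60 in ESRRG and PLD5 and 3.39 in CHRM3, KCNH1 and TENM2, against 3.39 for all No-Dox-only regions, and the lowest fold in each gene was 2.54. Only 1 of the 906 reached a fold of 8 (0.110%), against 735 of all 67861 No-Dox-only regions (1.08%). At the low end the order was the other way, with 23.1% under a fold of 3 at the 5 genes and 31.4% of all No-Dox-only regions, and 25.3% against 19.0% had folds from 4 to below 6. Strong regions are those with a peak whose fold was not below the median of its own list. The 5 genes had 826, of which 15 were Dox-only, 337 No-Dox-only and 474 shared. The No-Dox-only share of strong regions was 40.8% (37.4% to 44.2%), against 27.4% of all strong regions. Strong Dox-only regions numbered 8 in CHRM3, 5 in TENM2, 1 each in ESRRG and KCNH1 and 0 in PLD5, where strong No-Dox-only regions numbered 82. With the No Dox list cut to the 84353 peaks of the lowest q-values, as many as in Dox, 49.9% of the regions at the 5 genes and 32.1% of all regions were No-Dox-only, and TENM2 had 133 No-Dox-only regions in place of 249. At a q-value of 1e-05 the counts were 72 in CHRM3, 60 in KCNH1 and 61 in TENM2, against 163, 148 and 249 at the authors' threshold.

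The peaks themselves showed how unequal the coverage of the lists was. In the ESRRG window the Dox list had 267 peaks that covered 21.2% of the DNA, and the No Dox list had 386 peaks that covered 55.2%. In PLD5 there were 104 Dox peaks (9.76% of the window) and 249 No Dox peaks (47.1%). In CHRM3 there were 181 Dox peaks (16.1%) and 297 No Dox peaks (36.5%). These fractions are far above those of the whole genome, of which Dox peaks covered 1.80% and No Dox peaks 2.59%. KCNH1 had 114 Dox peaks (10.9%) and 230 No Dox peaks (34.3%). TENM2, on chromosome 5, had the lowest coverage, with 108 Dox peaks (4.62%) and 325 No Dox peaks (14.3%), and the highest ratio of peak numbers. No Dox peaks were also broader at the 4 genes of 1q, with median widths of 499 bp in Dox and 870.5 bp in No Dox at ESRRG and of 465.5 bp in Dox and 874 bp in No Dox at PLD5. At TENM2 the median widths were 436.5 bp in Dox and 509 bp in No Dox, close to the 482 bp and 491 bp of the whole Dox and No Dox lists.

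**Figure D2:**
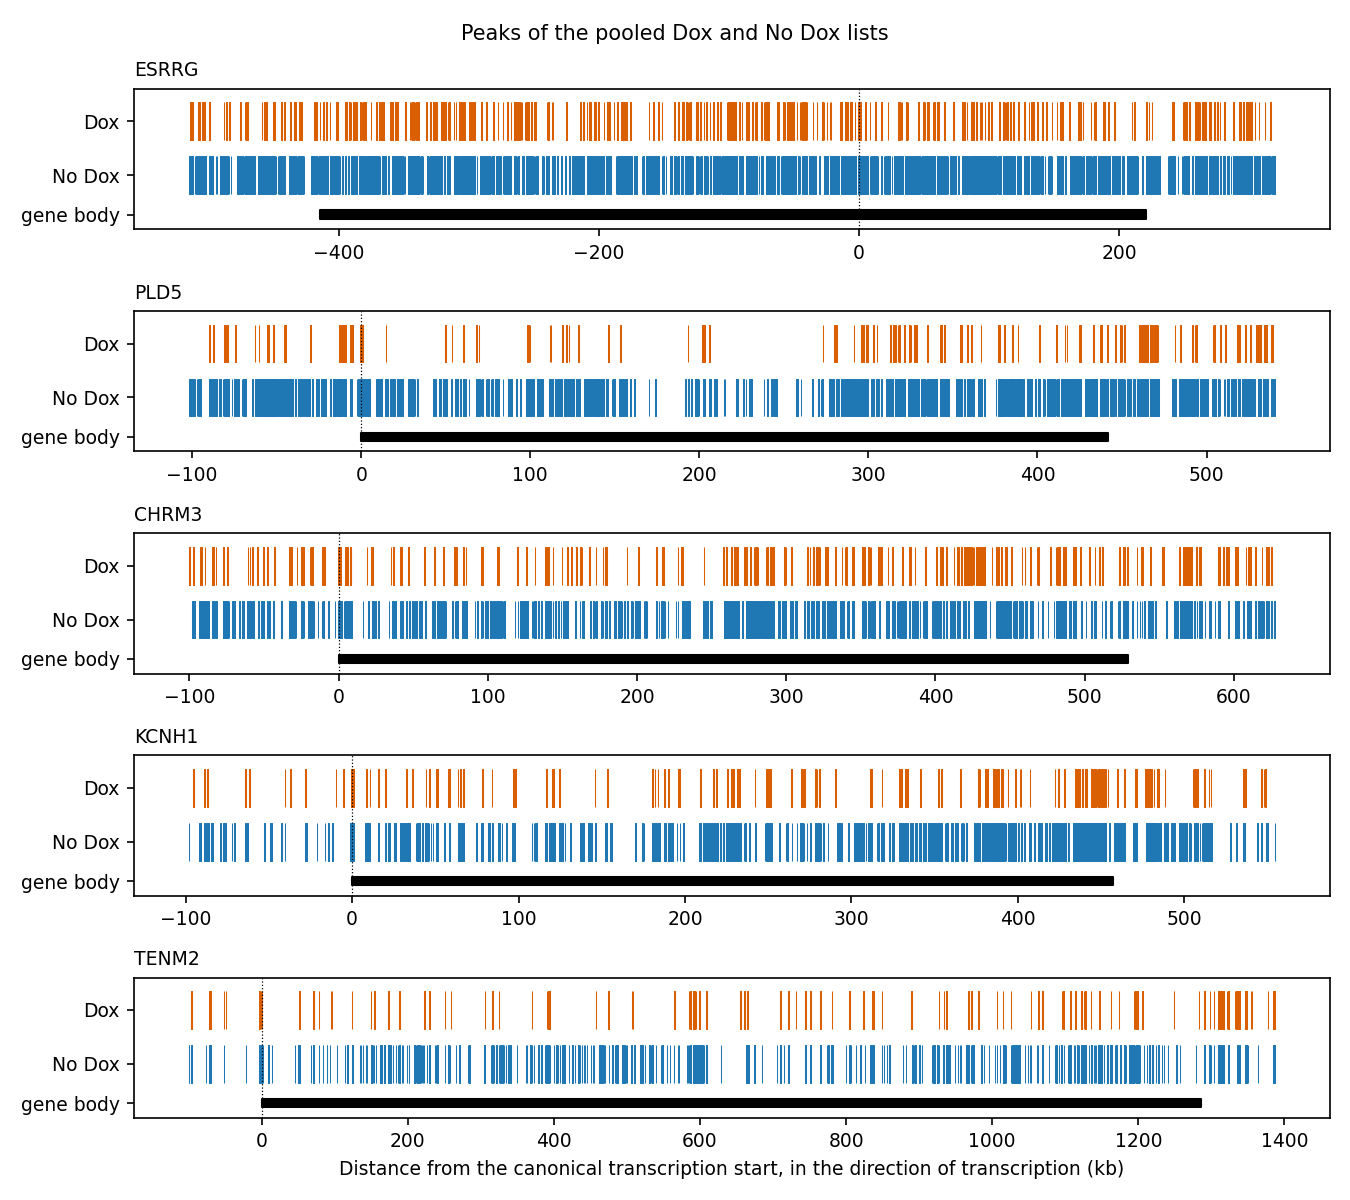
Position of every peak by its distance from the canonical transcription start (x axis, kb, in the direction of transcription), with Dox peaks above No Dox peaks and the gene body as a black bar. Each peak is drawn with a thin outline so that it stays visible. No Dox peaks filled stretches of PLD5 and TENM2 in which few Dox peaks were listed, while at ESRRG both rows ran through the whole window.

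Most Dox peaks at these genes overlapped a No Dox peak. The overlapping share of Dox peaks was 92.5% in ESRRG, 96.2% in PLD5, 80.7% in CHRM3, 86.8% in KCNH1 and 75.0% in TENM2, against 60.3% over both whole lists. The overlapping share of No Dox peaks was 39.1% over the 5 genes, against 42.3% over the whole list. No Dox peaks covered from 14.3% of the window at TENM2 to 55.2% at ESRRG, against 2.59% of the genome. A Dox peak meets a No Dox peak more easily where these cover more of the DNA. The windows were also chosen for many No-Dox-only regions, so the overlap is a description and no conclusion is drawn from it.

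The layout of the No-Dox-only regions differed between the genes. In PLD5 a run of 20 adjacent No-Dox-only regions, with no other class between them, spanned 63.3 kb (chr1:242252530-242315862), and in TENM2 a run of 20 spanned 54.7 kb (chr5:167379159-167433901). The longest runs had 13 regions in KCNH1, 7 in ESRRG and 6 in CHRM3. Runs were not counted at other genes, and longer runs come with a higher No-Dox-only share alone. In ESRRG and CHRM3 the No-Dox-only regions were instead interspersed with peaks of the Dox list, and 90 of 180 in ESRRG and 70 of 163 in CHRM3 lay within 1 kb of a Dox peak. Over the 5 genes 28.9% of the No-Dox-only regions lay that near to a Dox peak, against 28.0% on arm 1q outside these genes and 11.8% of all No-Dox-only regions.

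The promoters of all 5 genes were open in both lists. The PLD5 promoter (chr1:242522273-242525737) had folds of 21.9 in Dox and 46.4 in No Dox. Its No Dox fold was the highest of the 5 promoters, and its Dox fold was below that of CHRM3. The CHRM3 promoter (chr1:239385981-239388470) had folds of 22.6 in Dox and 33.0 in No Dox. The KCNH1 promoter (chr1:211132978-211135364) had folds of 8.82 in Dox and 16.9 in No Dox. The canonical promoters of ESRRG (chr1:216723332-216724123) and TENM2 (chr5:166977663-166979424) were weaker, with 3.16 in Dox and 5.08 in No Dox at ESRRG and 4.07 in Dox and 5.08 in No Dox at TENM2. ESRRG has several annotated starts, and the strongest, at chr1:217088072-217091034, had folds of 14.0 in Dox and 21.2 in No Dox. Another ESRRG start, at chr1:217076921-217080524, had close folds of 9.49 in Dox and 9.74 in No Dox.

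Regions at internal starts were in part shared and in part No-Dox-only. In TENM2 the internal start at chr5:167573201-167574740 in intron 4 was shared, with folds of 7.23 in Dox and 11.0 in No Dox, whereas regions at starts further along, such as chr5:167934518-167935315 (fold 4.66) and chr5:168162309-168162768 in exon 15 (3.81), were No-Dox-only. In PLD5 the regions at the internal starts in intron 1 (chr1:242449232-242450380, fold 4.66) and intron 4 (chr1:242264355-242264814, fold 4.87) were No-Dox-only. In KCNH1, 3 weak regions around exon 3 with folds of 3.18 to 3.81 were No-Dox-only. All of these No-Dox-only folds were below 5. The highest No-Dox-only fold at a start was 6.36, in intron 1 of ESRRG (chr1:216712881-216714265), and CHRM3 had No-Dox-only regions of fold 3.39 and 3.60 at its internal starts. Most regions at the internal starts of CHRM3 were shared, such as chr1:239717245-239719812 (3.62 in Dox and 5.08 in No Dox). A KCNH1 region at exon 11 (4.97 in Dox and 5.93 in No Dox) was shared too. So was an ESRRG region at chr1:216803616-216807200 (4.75 in Dox and 5.30 in No Dox).

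The DNA before a shared and a No-Dox-only start is shown for the main PLD5 promoter and an internal TENM2 start, as the 250 bases upstream of the start in RefSeq (GRCh38.p14), 5′ to 3′ along the gene, with each CG dinucleotide in capitals. RefSeq promoters were found for all 5 genes, with 14 starts in all.
PLD5, minus strand, chr1:242524698-242524947: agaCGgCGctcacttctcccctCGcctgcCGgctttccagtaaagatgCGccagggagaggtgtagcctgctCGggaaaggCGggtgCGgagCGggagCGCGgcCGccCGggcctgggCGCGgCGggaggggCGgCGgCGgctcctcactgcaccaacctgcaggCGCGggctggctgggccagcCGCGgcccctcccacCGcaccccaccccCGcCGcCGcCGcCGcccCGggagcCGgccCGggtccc
TENM2, plus strand, chr5:167754679-167754928: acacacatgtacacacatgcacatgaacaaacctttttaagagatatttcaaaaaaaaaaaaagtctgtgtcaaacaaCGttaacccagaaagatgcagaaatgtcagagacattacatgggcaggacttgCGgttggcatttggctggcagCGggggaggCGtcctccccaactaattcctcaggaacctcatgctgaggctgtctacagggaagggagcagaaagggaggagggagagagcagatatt

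The PLD5 stretch held 32 CG dinucleotides and had a GC content of 78.8%, and 90.5% of the 35116 RefSeq promoters held fewer. The TENM2 stretch held 4 and had a GC content of 46.4%, and 29.3% of the promoters held fewer, with a median of 11 over all of them. The TENM2 region there (chr5:167754816-167755145) had a fold of 2.75 in No Dox, among the lowest of its list. These starts are examples, and class did not follow the CG count at every start. Shared starts of ESRRG held from 0 (chr1:217078288-217078537) to 29 CG dinucleotides (chr1:217089619-217089868). The No-Dox-only start in PLD5 (chr1:242449469-242449718) held 3. CG dinucleotides in these letters describe the DNA and say nothing on its methylation.

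Away from starts, most No-Dox-only regions lay in introns. Of the 906, 522 (57.6%) lay in introns after the first, 109 in the first intron, 94 in the 5′ flank, 86 in the 3′ flank, 81 in parts of the ESRRG body outside its canonical transcript and 14 in exons. In TENM2, 220 of 249 lay in introns after the first. The gene bodies were cut into 4 parts of equal length along the direction of transcription. In PLD5 the No-Dox-only share was 83.7% in the first part, where 36 regions were in No Dox alone, and 61.4% in the last part. CHRM3 had a like order, with 62.5% in its first part and 45.5% in its last. ESRRG had the other order, with 37.3% in its first part and 52.0% in its last, so no common layout held for the 5 genes.

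Dox-only regions were few, and 15 of the 101 were strong. Over the genome most Dox-only regions were not strong either, with 9877 strong ones of 33440. Besides the TENM2 region of fold 15.4 shown above, the highest fold of a Dox-only region was 6.56 in CHRM3 (chr1:239433096-239433602, intron 1), 4.29 in ESRRG and in KCNH1, and 3.62 in PLD5. The GC content of Dox-only regions had a median of 42.0% at the 5 genes, against 50.7% for all Dox-only regions.

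Shared regions had lower deposited folds in Dox. The median fold was 3.84 in Dox and 4.66 in No Dox for the 191 shared regions of ESRRG. It was 3.62 in Dox and 4.87 in No Dox for the 77 of PLD5. It was 3.84 in Dox and 4.24 in No Dox for the 125 of CHRM3. The Dox fold was the lower in 142 regions of ESRRG, 65 of PLD5 and 77 of CHRM3. In KCNH1 the medians were 3.84 in Dox and 4.66 in No Dox, with the Dox fold lower in 61 of 81, and in TENM2 they were 4.52 in Dox and 5.08 in No Dox, with the Dox fold lower in 45 of 74. Over the 5 genes, the Dox fold was lower in 390 of 548 shared regions (71.2%), and the median ratio of Dox to No Dox fold was 0.830. Over all shared regions it was lower in 56.1%, with a median ratio of 0.949, and on arm 1q outside these genes in 54.4%. The strongest shared region of ESRRG went the other way, with folds of 33.5 in Dox and 22.03 in No Dox (chr1:216901991-216907626). That of KCNH1, within HHAT, had folds of 15.4 in Dox and 28.2 in No Dox, and that of TENM2 in intron 4 had 22.4 in Dox and 36.9 in No Dox.

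**Figure D3:**
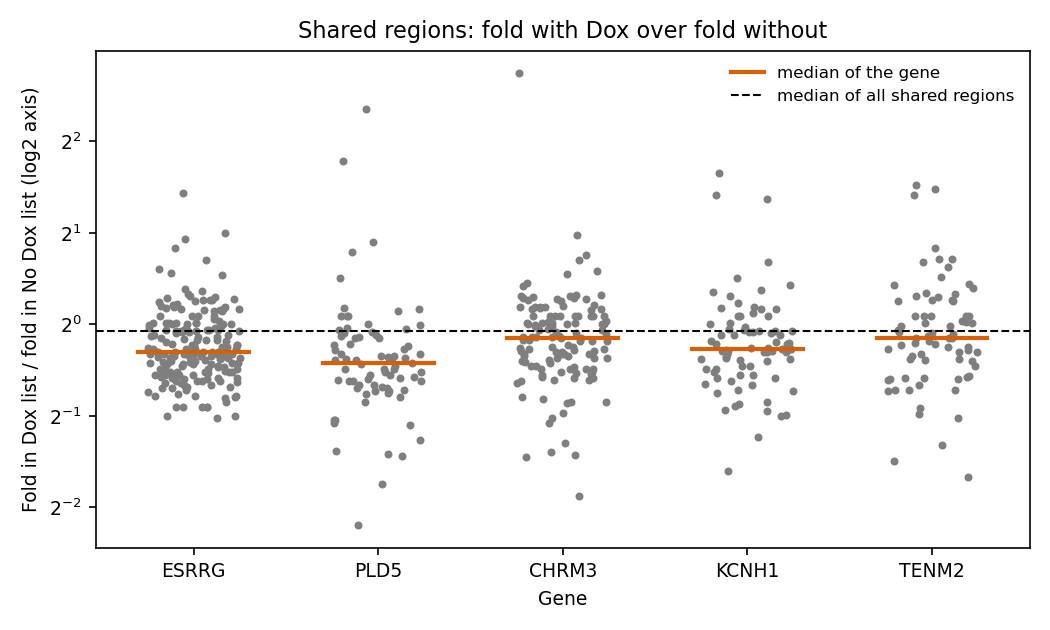
Fold in Dox divided by fold in No Dox (y axis, log2 scale) for each shared region, by gene (x axis), with the gene's median as a bar and the median of all shared regions as a dashed line at 0.949. The medians of the 5 genes, from 0.747 in PLD5 to 0.899 in TENM2, lay below the dashed line, and single regions of each gene lay above 1.

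Local GC content was low. It was 37.9% over the ESRRG window, 41.0% in PLD5, 38.9% in CHRM3, 41.2% in KCNH1 and 40.3% in TENM2, with a median of 39.0% over the 417 long genes, so the 5 genes were not GC-poor among long genes. The No-Dox-only regions had a median GC content of 41.5% (middle range between quartiles 37.9% to 45.0%), against 44.3% for all No-Dox-only regions and 42.2% on arm 1q outside these genes. Shared regions at the 5 genes had a median of 42.1%, against 50.5% for all shared regions. GC content can change the yield of a library, and its part in the result was not tested.

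The No-Dox-only share was set beside that of other regions of like GC content. Below 35% GC it was 79.3% (71.0% to 86.2%) at the 5 genes and 70.2% in all other regions. Between 35% and 40% it was 56.6% (51.8% to 61.3%) at the 5 genes and 60.5% in all others, and between 40% and 45% it was 57.9% (53.8% to 61.9%) at the 5 genes and 54.9% in all others. Through these bands, which held most regions of the 5 genes, the share was within 10 percentage points of that of all other regions. On arm 1q outside these genes it was 70.1% below 35% GC, 58.0% between 35% and 40%, and 44.9% (43.5% to 46.2%) between 40% and 45%. Between 45% and 50% it was 56.8% (50.9% to 62.5%) at the 5 genes, 49.7% in all others and 34.6% on arm 1q. At 50% GC and over it was 48.8% (39.6% to 58.0%) at the 5 genes, against 29.5% in all others and 18.2% on arm 1q outside these genes. Only 7.78% of the regions at the 5 genes were in that band, against 40.8% of all others. The Dox-only share was lower at the 5 genes in every band, for example 3.94% between 40% and 45% GC, against 17.1% in all other regions.

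**Figure D4:**
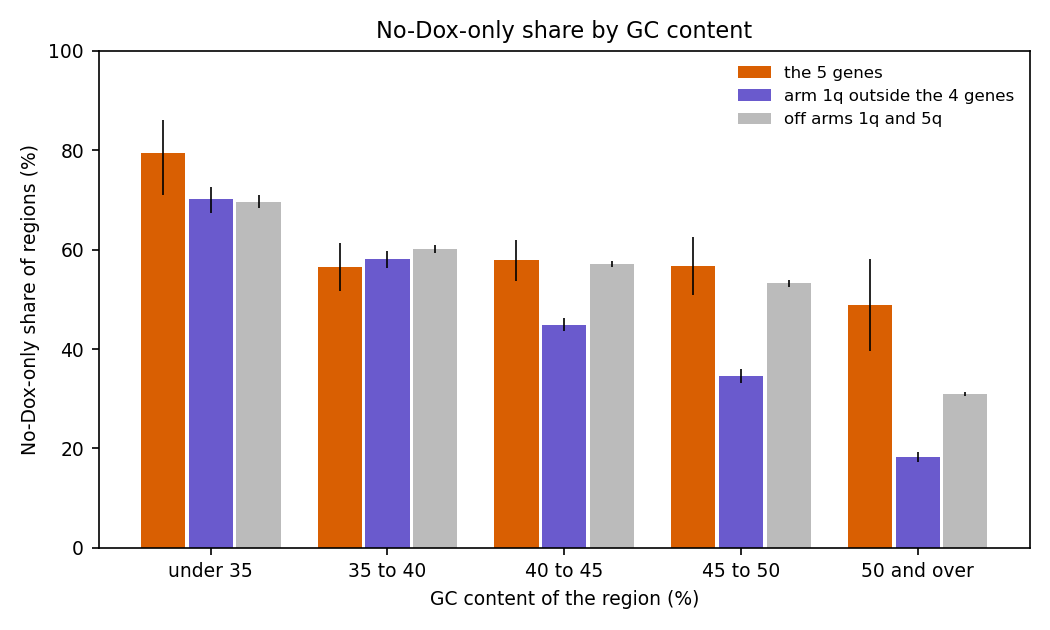
No-Dox-only share of regions (y axis, %) by GC content of the region (x axis, %), for the 5 genes, arm 1q outside the 4 genes there, and the genome off arms 1q and 5q, with 95% exact intervals of counting error. The share at the 5 genes was 79.3% below 35% GC and 48.8% at 50% and over, where that of arm 1q outside the genes was 18.2%.

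Motif letters were counted within 100 bp of the summit of No-Dox-only regions, a measure that the choice of the genes did not use. The AP-1 motif was found in 48 of 906 (5.30%, 3.93% to 6.96%), against 11.8% of all other No-Dox-only regions, 7.20% (6.64% to 7.79%) on arm 1q outside these genes and 8.62% (7.56% to 9.76%) at 40 other long neuronal genes. By gene it was in 7 of 180 in ESRRG, 5 of 166 in PLD5, 7 of 163 in CHRM3, 10 of 148 in KCNH1 and 19 of 249 in TENM2. Among strong regions it was in 7.72% (5.10% to 11.1%) at the 5 genes, against 22.6% of the others, 11.6% (10.3% to 13.0%) on arm 1q and 19.1% (16.0% to 22.5%) at the other long neuronal genes. Against arm 1q the intervals overlapped in both counts, and that difference was not tested. Between 35% and 45% GC the AP-1 share was 6.35% (4.51% to 8.64%) at the 5 genes, 13.8% in the others, 7.67% (6.91% to 8.50%) on arm 1q and 8.99% (7.57% to 10.6%) at the other long neuronal genes, and the intervals of the last 2 overlapped that of the 5 genes. In strong regions of that GC range the AP-1 share was 8.54% (5.36% to 12.8%) at the 5 genes. There the interval of arm 1q (12.1%, 10.4% to 14.0%) overlapped it, and that of the other long neuronal genes (21.7%, 17.4% to 26.4%) did not.

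The TEAD motif was found in 63 of 906 No-Dox-only regions (6.95%, 5.38% to 8.81%), against 5.70% of the others. The reversed TEAD letters (CCTTACA or CCTTACG), counted as a control, were in 1.77% of the No-Dox-only regions at the 5 genes and in 2.36% of the other No-Dox-only regions, and over all classes in 2.12% at the 5 genes and in 2.19% of all regions. Of the 101 Dox-only regions at the 5 genes 12 had a TEAD motif (11.9%, 6.29% to 19.8%), against 13.6% of all other Dox-only regions, and 3 had an AP-1 motif. Shared regions at the 5 genes had an AP-1 motif in 11.5% (8.95% to 14.5%), against 18.5% of other shared regions and 13.5% (12.7% to 14.4%) of those on arm 1q outside these genes, whose interval overlapped that of the 5 genes. A motif here is a match of letters and not a measured binding site.

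The density of regions was higher at the 5 genes than at most long genes. A choice by many No-Dox-only regions favours a high density, so this is a description. At the 4 genes of 1q the density was near that of other long genes of their arm. ESRRG had 46.9 regions per 100 kb, the highest of the 417 long genes, CHRM3 44.3, PLD5 38.5, KCNH1 37.1 and TENM2 23.6, against a median of 3.46. The 11 other long genes of 1q had a median of 35.8, with a range of 8.62 to 45.5. The 18 other long genes of 5q had a median of 5.06, with a range of 2.10 to 33.2, so TENM2 lay above most of them, and those off both arms had a median of 3.38. The arms as a whole had 20.5 regions per 100 kb on 1q and 10.8 on 5q, against 4.08 elsewhere. Copy number was not measured on these arms or on any other chromosome, and its part in the density and in the weak regions was not tested. The density did not end at the genes. Over 1 Mb upstream of each window it was 41.4 per 100 kb at ESRRG, 20.8 at PLD5, 41.1 at CHRM3, 20.5 at KCNH1 and 21.5 at TENM2. Over 1 Mb downstream it was 43.2 at ESRRG, 35.0 at PLD5, 43.0 at CHRM3, 30.7 at KCNH1 and 28.5 at TENM2. The classes around the genes differed from those inside to an extent that varied by gene. The No-Dox-only share was 46.0% inside the ESRRG window, 45.9% upstream of it and 49.1% downstream. At PLD5 it was 67.2% inside, 67.8% upstream and 56.3% downstream, and the Dox-only share was 1.62% inside, 10.6% upstream and 5.14% downstream. At CHRM3 the No-Dox-only share was 50.5% inside, 50.4% upstream and 63.0% downstream. At TENM2 it was 71.1% inside, 68.8% upstream and 62.8% downstream, and the Dox-only share was 7.71% inside, 11.6% upstream and 13.7% downstream. KCNH1 was different on its upstream side, where 44.4% of the regions were Dox-only and 19.0% No-Dox-only, against 6.15% and 60.7% inside its window. Downstream of its window 16.0% were Dox-only and 50.2% No-Dox-only.

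**Figure D5:**
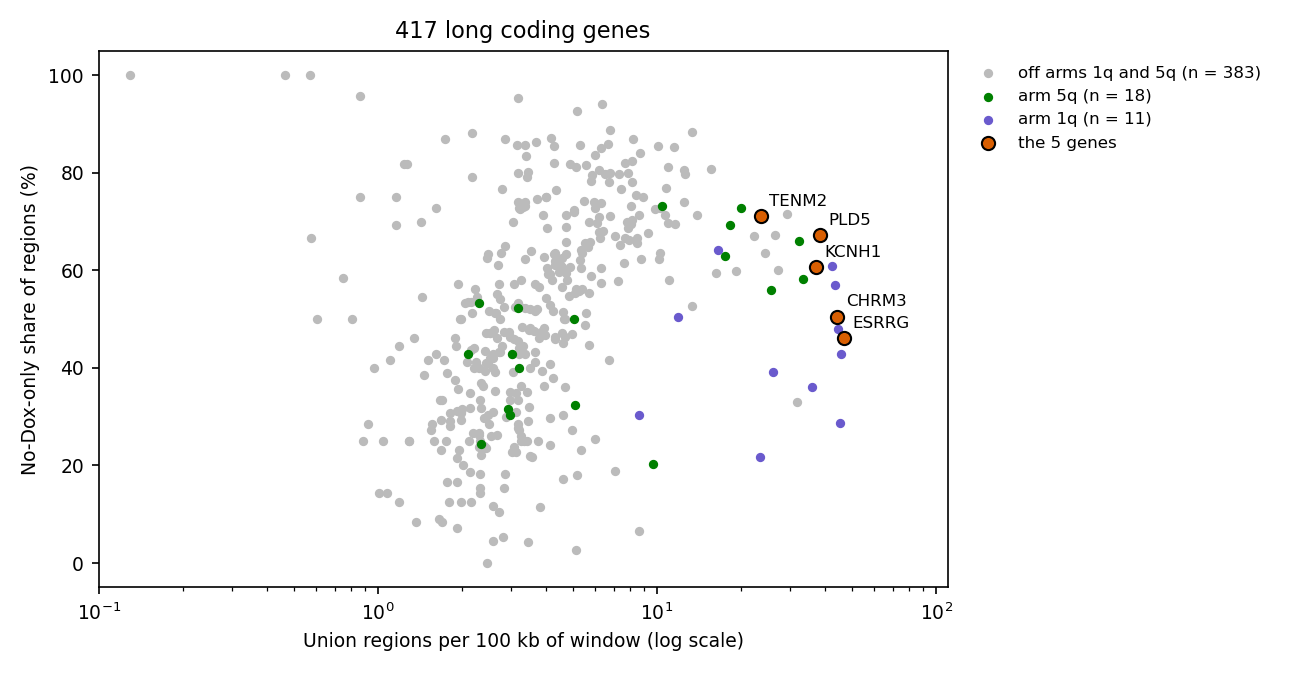
No-Dox-only share of regions (y axis, %) against regions per 100 kb (x axis, log scale) for 417 coding genes of at least 441712 bp, by chromosome arm, with the 5 genes labelled. The 5 genes lie at the right, between 23.6 and 46.9 regions per 100 kb, with other genes of 1q, some of 5q and some off both arms, such as CSMD3 on chromosome 8 at 29.1. Copy number was not measured on any chromosome. The shares of the 5 genes, 46.0% to 71.1%, lie within the range of long genes elsewhere.

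By share alone, the 5 genes were not extreme. Their No-Dox-only shares ranked 89 for TENM2, 109 for PLD5, 150 for KCNH1, 214 for CHRM3 and 248 for ESRRG among the 417 long genes. By number of No-Dox-only regions per 100 kb PLD5 ranked first, with 25.9. Long genes with as many or more No-Dox-only regions, though not among the 5, included CSMD3 (295), ZFPM2 (231) and RGS7 (204). Long genes on 1q other than these had a No-Dox-only share of 44.5% (42.7% to 46.4%), those on 5q 58.5% (56.0% to 61.0%) and those elsewhere 60.0% (59.2% to 60.7%). As 4 of the 5 genes are on 1q, and FMN2 shares part of the window of CHRM3, these genes are not independent of their neighbours.

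Relatives of the 5 genes gave a mixed picture. The 21 other members of their families (estrogen-related receptors, phospholipases D, muscarinic receptors, KCNH channels and teneurins) held 125 regions in Dox alone, 234 in No Dox alone and 160 in both, a No-Dox-only share of 45.1% (40.7% to 49.5%). A few relatives carried this share, since the median over the 21 genes was 14.6% and only 4 of them had a No-Dox-only majority. Most No-Dox-only regions were at KCNH7 (67, with 2 Dox-only), CHRM2 (41, with 0 Dox-only), KCNH8 (30, with 6) and TENM1 (24, with 5). KCNH7 and KCNH8 encode potassium channels like KCNH1, CHRM2 a muscarinic receptor that acts through Gi, and TENM1 another teneurin. At CHRM2 and TENM1 the promoter itself had a peak in No Dox alone, unlike at the 5 genes, whereas PLD4, KCNH2 and KCNH3 had one in Dox alone. Of the 21 relatives 14 had a promoter peak in both lists and 2 in neither. Their median density was 4.96 regions per 100 kb. In the gene bodies without flanks the share of the relatives was 63.3%, so their value depends on the flanks.

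The 40 other long neuronal genes, mostly adhesion molecules, synaptic proteins and ion channels, held 369 regions in Dox alone, 2588 in No Dox alone and 522 in both, and their No-Dox-only share of 74.4% (72.9% to 75.8%) was above the 58.3% of the 5 genes. CSMD3 had 31 regions in Dox alone and 295 in No Dox alone, CNTNAP2 13 in Dox alone and 183 in No Dox alone, LRP1B 9 in Dox alone and 181 in No Dox alone, and DLG2 15 in Dox alone and 135 in No Dox alone. CNTNAP2 encodes an adhesion protein of the axon, LRP1B a large receptor of the LDL receptor family and DLG2 a scaffold protein of the synapse. Of these 40 genes 27 had a promoter peak in both lists, 7 in No Dox alone, 0 in Dox alone and 6 in neither. Their median density of 4.98 regions per 100 kb was near that of the genome, 4.94, so a high No-Dox-only share also occurred at long genes without the density seen at the 5 genes. Shared regions made up 15.0% at these genes and 35.2% at the 5 genes.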

How the data were processed

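ATAC-seq was analysed in MCF10A cells with inducible TAZ-4SA, 2 Dox and 2 No Dox replicates. Per the study's methods the authors used BWA to align reads to hg38, and MACS2, run on the pooled replicates, to call peaks (FDR 0.05). In each deposited list the fold is a ratio of pooled signal to background at the summit, the −log10 q-value is that of the peak caller, and the score and the −log10 p-value deposited with each peak were not used. The depth per sample is not given in the sources used here. The study's own DARs were not analysed here.

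Peaks of chromosomes 1 to 22 and X were merged into union regions where they overlapped by 1 bp or touched. Regions within the GENCODE release 44 gene body and 100 kb each side were counted. Chromosome arms were split at the longest stretch without coding genes. A promoter is a start within 1 kb. Motifs were sought in the 100 bp on each side of a region's strongest summit. Equal lists were made by dropping the No Dox peaks of the highest q-values. The genes, lists and rules were chosen with earlier results of these data known. The text names the 5 genes, their promoter regions, their highest condition-only and shared regions, up to 4 genes per list, those with most regions of a single condition, and the long genes with the most No-Dox-only regions. Alternatives were stricter q-values, equal lists, an overlap of 50%, merging within 200 bp, other flanks, strong regions and other motif windows. The values of 1 long gene that this rule names are left out. The counting steps were tested on simulated data. Python 3.11.15, numpy 2.4.6, pandas 2.3.3, scipy 1.17.1, pysam 0.24.0, samtools 1.23.1 and matplotlib 3.10.9 were used.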

Additional observations from a re-analysis of the deposited data

How the results depend on the processing

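No paired analysis was possible because the replicates of each condition were pooled in 1 list, and no replicate could be left out for the same reason. Of 52 values of the main shares under other settings, 31 stayed within the counting interval of the reported value and 21 moved beyond it. The No-Dox-only share of the 5 genes was 61.7% at a q-value of 1e-05, 49.9% with lists of equal length and 40.8% in strong regions. Over all regions these shares were 31.7%, 32.1% and 27.4%. The genes were chosen from the same lists for many No-Dox-only regions, which favours a higher share in each setting, so this is a description. The No-Dox-only share of the family relatives was 32.7% at a q-value of 1e-05, 30.8% with equal lists, 29.2% in strong regions, 63.3% in the gene body and 50.5% with a flank of 50 kb. That of the other long neuronal genes was 54.9%, 59.2% and 51.5% at a q-value of 1e-05, with equal lists and in strong regions, so that at the strict q-value it was below the 61.7% of the 5 genes. That of the long genes of 1q was 36.8% with equal lists and 28.0% in strong regions. The median GC content of No-Dox-only regions was 41.9% in strong regions and 42.3% within 100 bp of the summit. The AP-1 share was 8.88% at a q-value of 1e-05, 7.72% in strong regions, 11.1% in the whole region and 2.76% within 50 bp of the summit, and the TEAD share was 17.7% in the whole region and 2.87% within 50 bp. Of 40 No-Dox-only counts by gene, 9 moved by over 1.5 times. Why values moved was not tested, apart from the motif windows, where more bases give more chance matches. Depth per sample is unknown here, and it limits which weak regions could be listed.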
